A study of Mus musculus with 8 samples.

Results

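The Hox cluster miRNAs described here are the 6 mature miRNAs of the miR-10 and miR-196 families that the array measured and the rule named: mmu-miR-10a-5p, mmu-miR-10a-3p, mmu-miR-10b-5p, mmu-miR-10b-3p, mmu-miR-196a-5p and mmu-miR-196b-5p (written without the mouse prefix from here on), out of 1881 mouse miRNAs on the array. The rule names them by their position in the Hox clusters and uses no measured value, though earlier results of these data were known when they were chosen. The samples were kidneys of male C57BL/6 mice aged 9 weeks. In the 4 IRI samples (ischemia-reperfusion injury, labelled 1, 2, 3 and 18) the left renal circulation had been clamped for 25 or 45 min, the right kidney was removed in the same operation, and the kidney was collected 12 or 24 h later. In the 4 sham samples (labelled 1, 2, 3 and 6) the abdomen was opened along the midline and nothing else was done. The labels do not tie an IRI sample to a clamping or collection time, so the IRI group may mix them. Sham mice kept both kidneys, so the effects of ischemia, of reperfusion and of losing the other kidney cannot be told apart, and nothing states that the samples of a group were separate animals.

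MicroRNAs are short RNAs that lower the output of messenger RNAs to which they pair, mostly through the bases near their 5′ end called the seed. The miR-10 and miR-196 genes lie inside the Hox clusters, the arrays of homeobox genes that set position along the body axis, and in embryos they are transcribed in domains that resemble those of the neighbouring Hox genes. miR-196 is known for directing cleavage of the Hoxb8 messenger RNA in the mouse embryo, and miR-10 is known to target Hox messenger RNAs as well. Both families continue to be expressed in the adult kidney, an organ that forms in the trunk region where these clusters are active.

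The mature sequences are printed because each family is a pair of near-identical RNAs, which decides how well the array can separate them. They are taken from RefSeq (GRCm38.p6) and run 5′ to 3′, with bases 2 to 8 in capitals. The 5p arms of miR-10a and miR-10b share a seed, as do the 5p arms of miR-196a and miR-196b, and no other miRNA on the array had either seed:
miR-10a-5p: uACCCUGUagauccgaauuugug
miR-10b-5p: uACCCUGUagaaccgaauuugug
miR-196a-5p: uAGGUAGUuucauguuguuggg
miR-196b-5p: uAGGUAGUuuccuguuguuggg
miR-10a-3p: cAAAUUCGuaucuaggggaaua
miR-10b-3p: cAGAUUCGauucuaggggaaua

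Counting positions from 1 at the 5′ end, the substitution U12A separates miR-10a-5p (first) from miR-10b-5p, both of 23 bases. A12C separates miR-196a-5p (first) from miR-196b-5p, both of 22 bases. Both substitutions lie outside the seed. The 3p arms of miR-10a (first) and miR-10b differ by A3G, U9A and A10U, and the first of these falls in the seed, so these arms do not share one.

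In GRCm38.p6 miR-10a-5p lies at chr11:96317186-96317208 and miR-10a-3p at chr11:96317227-96317248, both on the plus strand. Mir10a overlaps the long Hoxb3 gene, with Hoxb5 and Hoxb4 as its nearest protein-coding genes on either side. miR-10b-5p lies at chr2:74726074-74726096 and miR-10b-3p at chr2:74726114-74726135, on the plus strand, within Hoxd3 and Hoxd4 as RefSeq annotates them. miR-196a-5p comes from a pair of genes, Mir196a-1 at chr11:96265187-96265208 between Hoxb13 and Hoxb9, and Mir196a-2 at chr15:102973365-102973386 between Hoxc10 and Hoxc9, both on the plus strand. Its signal therefore sums both loci. miR-196b-5p lies at chr6:52230129-52230150 on the minus strand, between Hoxa9 and Hoxa10.

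The hairpins from which the miR-10 arms are cut show where each arm sits, with the 5p and then the 3p arm in capitals:
Mir10a: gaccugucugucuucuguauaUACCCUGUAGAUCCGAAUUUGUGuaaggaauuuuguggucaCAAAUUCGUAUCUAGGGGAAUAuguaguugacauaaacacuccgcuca
Mir10b: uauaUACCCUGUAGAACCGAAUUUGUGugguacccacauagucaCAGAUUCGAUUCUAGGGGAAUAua

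The array reads each miRNA with short DNA probes complementary to most of its length, counted from the 3′ end. The probes below show the only base that separates the family members on the array, in capitals:
miR-10a-5p probe: cacaaattcggAtctacaggg
miR-10b-5p probe: cacaaattcggTtctacaggg
miR-196a-5p probe: cccaacaacaTgaaactacc
miR-196b-5p probe: cccaacaacaGgaaactacc

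Each differing base lies inside its probe, and part of a family member's RNA may still bind its relative's probe. How much did so was not tested, so each 5p value is uncertain with respect to its family partner.

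The 8 arrays were read in 1 colour and held 56430 spots each. The scanner's software marked 393 to 447 miRNAs as detected on IRI arrays, against 327 to 379 on sham arrays. All 8 arrays lay on 1 slide, with IRI arrays in row 2 and sham arrays in row 1, so slide row and group cannot be told apart. To scale the arrays, the 75th percentile of the 317 miRNAs that every array detected was taken as a divisor, and it was 445 to 562 intensity units on IRI arrays and 356 to 456 on sham arrays. The divisor was higher on the IRI array than on the sham array of every slide column, which bears on every scaled value below. The 6 kidney tubule miRNAs listed as markers were detected on all 8 arrays, while the 3 pancreas markers were detected on no array. Of the muscle pair, miR-133a-3p was detected on no array and miR-1a-3p on all 8. Scaled signals of miR-1a-3p were dim, 13.6 to 19.5 on IRI arrays and 21.4 to 29.2 on sham arrays. Its log2 change was -0.54 (limma adjusted p = 0.0048), and it was not called without scaling. IRI 3 and IRI 18, at 17.1 and 13.6, lay below the floor of 17.3 set before log2. A floor at the 1st percentile gave -0.63 and a floor at the 10th percentile gave -0.31. miR-122-5p of liver was detected on 1 IRI array.

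Of the 6 members, 5 were detected on all 4 IRI and all 4 sham arrays and entered the test, together with all other miRNAs detected on every array of a group, 379 in all. The exception was miR-10b-3p, the lesser arm of the Mir10b hairpin, detected on IRI 1 and 2 and on sham 1. After the 75th percentile scaling, all 5 tested members were lower in IRI kidneys by limma with Benjamini-Hochberg adjustment over all 379 miRNAs at 0.05. The same test called 36.7% of all tested miRNAs lower and 12.1% higher in IRI kidneys, or 48.8% in either direction. The median log2 change, IRI minus sham, was -0.32 over the members and -0.11 over all tested miRNAs, whose quartiles were -0.39 and 0.28. These falls are relative to the other miRNAs of the same array. With no scaling 0 of the 5 members were called, and 0 at an unadjusted p under 0.05, and miR-10a-5p turned to the other sign, as it did with labelling spike-in scaling. With quantile normalization miR-10a-5p again took the other sign, and 3 of the 5 members were lower, against 33.5% of all tested miRNAs lower and 13.2% higher. In whole kidney, fewer cells of the kind that carries a miRNA and less of it per cell cannot be told apart.

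miR-196a-5p, the family member encoded in both the Hoxb and the Hoxc cluster, had the lowest change of the 6. Its scaled signals were 756, 706, 726 and 696 intensity units on IRI arrays 1, 2, 3 and 18, against 1052, 991, 1052 and 1041 on sham arrays 1, 2, 3 and 6. Every IRI value lay below every sham value with a wide gap between the groups. The means were 721 ± 26.8 in IRI kidneys and 1034 ± 28.9 in sham kidneys (SD, n = 4 each). The log2 change was -0.52 ± 0.05 (SE), or 0.697-fold, with an adjusted p of 0.00061 by limma. Of all tested miRNAs, 9.76% had a lower change.

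miR-196b-5p, encoded in the Hoxa cluster and sharing the seed of miR-196a-5p, had scaled signals of 286, 266, 281 and 254 on the IRI arrays, against 372, 349, 399 and 395 on the sham arrays. The groups did not overlap here either. Its means were 272 ± 14.5 in IRI kidneys and 379 ± 23.2 in sham kidneys (SD, n = 4 each), a log2 change of -0.48 ± 0.07 (SE) and 0.717-fold, with an adjusted p of 0.0012 by limma. The same seed is thus carried by 2 RNAs whose measured changes lie close together. Each may also bind the other's probes, which was not tested.

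miR-10a-5p, the main arm of the Hoxb-cluster hairpin, had scaled signals of 2209, 2051, 1877 and 2083 on the IRI arrays, against 2617, 2431, 2502 and 2477 on the sham arrays. IRI 3 was the lowest array, and the highest IRI value stayed below the lowest sham value. The means were 2055 ± 137 in IRI kidneys and 2507 ± 79.1 in sham kidneys (SD, n = 4 each). The log2 change was -0.29 ± 0.07 (SE), or 0.819-fold, with an adjusted p of 0.0083 by limma, and its sign turned without scaling, with spike-in scaling and with quantile normalization.

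miR-10b-5p, its counterpart from the Hoxd cluster, had scaled signals of 1808, 1680, 1512 and 1620 on the IRI arrays, against 2163, 1982, 2079 and 2033 on the sham arrays. IRI 3 was again the lowest array, and the groups did not overlap. The means were 1655 ± 123 in IRI kidneys and 2064 ± 76.9 in sham kidneys (SD, n = 4 each). Its log2 change was -0.32 ± 0.07 (SE), or 0.801-fold, with an adjusted p of 0.0070 by limma, while quantile normalization gave -0.10 with an adjusted p of 0.271.

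miR-10a-3p, the lesser arm of the Mir10a hairpin, was dim, with scaled signals of 62.1, 65.8, 64.7 and 71.5 on the IRI arrays, against 97.7, 73.7, 79.5 and 78.3 on the sham arrays. The highest IRI value and the lowest sham value were close together, and sham 1 stood above the other sham arrays. The means were 66.0 ± 3.95 in IRI kidneys and 82.3 ± 10.6 in sham kidneys (SD, n = 4 each), a log2 change of -0.31 ± 0.10 (SE) with an adjusted p of 0.030 by limma. This call was lost when IRI 1, IRI 2, IRI 3 or sham 3 was left out, with limma adjusted p-values of 0.0646, 0.0659, 0.0609 and 0.0586. It was also lost with the slide column as a block (adjusted p = 0.0730), and the sign turned with spike-in scaling.

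miR-10b-3p had scaled signals of 19.7, 19.7, 12.1 and 15.9 on the IRI arrays, against 36.8, 14.9, 23.8 and 19.4 on the sham arrays. The groups overlapped, most of these arrays were below detection, and no fold is given. In the authors' deposited table its ratios were 7.59, 8.04, 0.899 and 0.579 for the IRI arrays, against 23.3, 0.953, 0.998 and 1.00 for the sham arrays. The large ratios in the authors' deposited table fall on IRI 1, IRI 2 and sham 1, the same arrays on which the scanner marked the miRNA as detected.

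**Figure D1:**
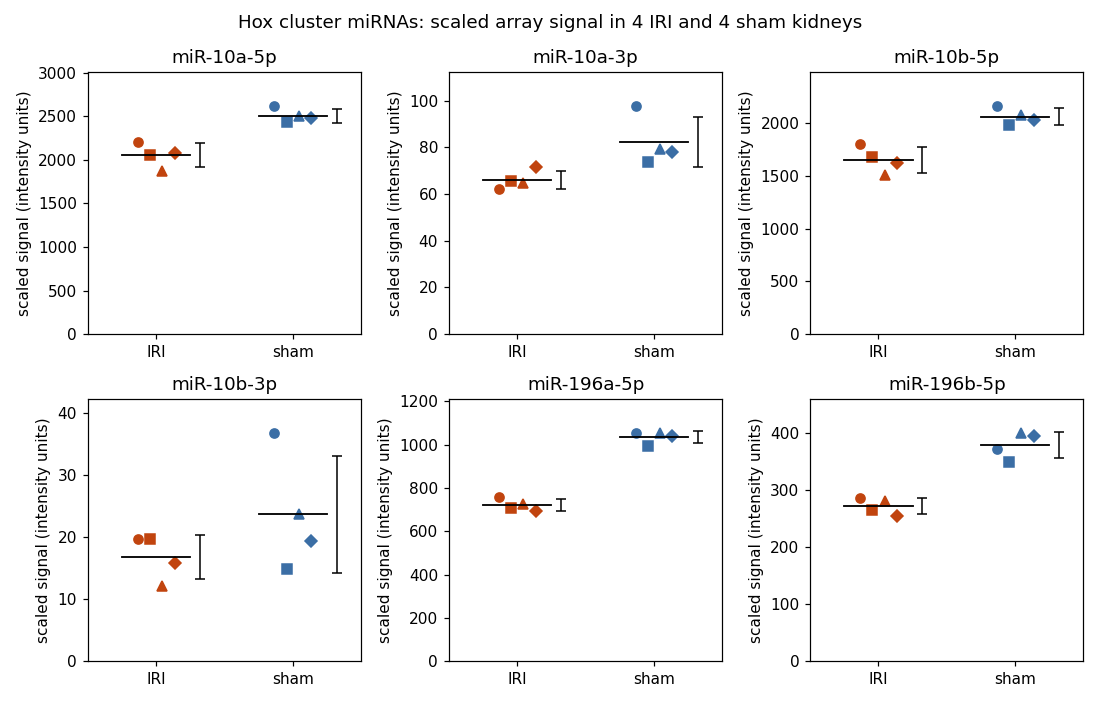
Scaled signal (intensity units, linear axis from 0) of the 6 Hox cluster miRNAs on each array, IRI left and sham right; marker shapes tell the arrays of a group apart and match slide columns, lines are means and bars are SD (n = 4 each). The IRI points lie below the sham points without overlap for all members but miR-10b-3p, after scaling to the 75th percentile of each array; without scaling the groups overlapped for every member.

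The groups of all 5 tested members were free of overlap after scaling, as were those of 35.9% of tested miRNAs with IRI below sham. Within slide columns, each of which held 1 IRI and 1 sham array, the log2 differences of miR-196a-5p ran between -0.58 and -0.48 and those of miR-196b-5p between -0.64 and -0.38. miR-10a-5p ran between -0.41 and -0.24, miR-10b-5p between -0.46 and -0.24, and miR-10a-3p between -0.65 and -0.13. Every tested member was lower on the IRI array of each column, which follows from the lack of overlap and adds nothing to it. For miR-10b-3p the same differences ran between -0.90 and 0.19.

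Before scaling, the groups of all 5 tested members overlapped, and 1.06% of tested miRNAs had every IRI value below every sham value. miR-10a-5p had 2622, 2572, 1934 and 2067 intensity units on the IRI arrays, against 2662, 2389, 2069 and 1968 on the sham arrays. The groups lay on top of each other, with means of 2299 ± 349 in IRI kidneys and 2272 ± 316 in sham kidneys (SD, n = 4 each). For miR-10b-5p the unscaled means were 1855 ± 315 in IRI kidneys and 1871 ± 260 in sham kidneys (SD, n = 4 each), which differed by less than either SD. miR-196a-5p had unscaled signals of 898, 885, 748 and 691 on the IRI arrays, against 1070, 974, 870 and 827 on the sham arrays. The IRI values of miR-196a-5p lay below the sham array of the same slide column in all 4 columns, but the groups overlapped. miR-196b-5p averaged 303 ± 40.7 unscaled units in IRI kidneys and 341 ± 27.6 in sham kidneys (SD, n = 4 each), again with overlap.

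Under limma without scaling the log2 change was -0.22 for miR-196a-5p (adjusted p = 0.266), -0.18 for miR-196b-5p (adjusted p = 0.337) and 0.015 for miR-10a-5p (adjusted p = 0.945). Over all tested miRNAs the median change was 0.17 without scaling and 0.18 with spike-in scaling, against -0.11 with the 75th percentile. Without scaling 14% of all tested miRNAs were called higher and 0.264% lower in IRI kidneys. The 5 tested members lay below the median of all tested miRNAs with the 75th percentile, with no scaling and with spike-ins, and miR-10a-5p lay above it with quantile normalization. The same counts were 19.8% higher and 0.528% lower with spike-in scaling, where 0 members were called and 0 had an unadjusted p under 0.05.

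**Figure D2:**
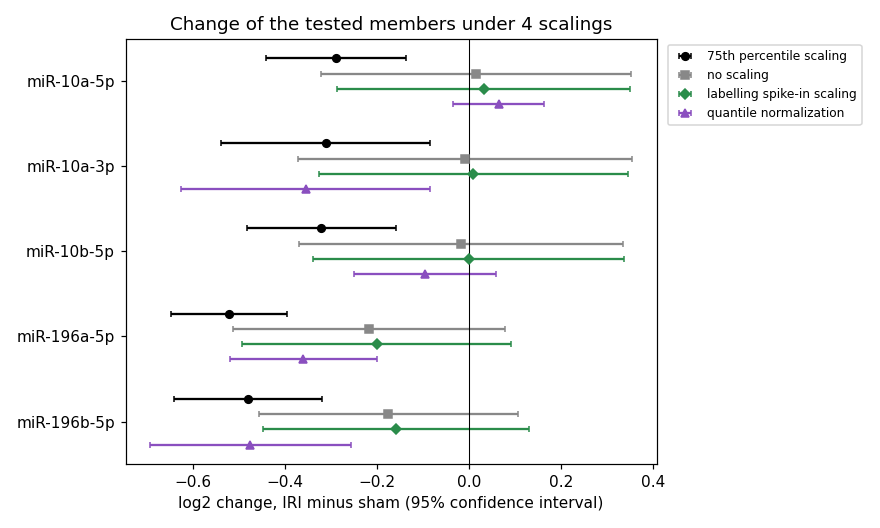
Log2 change, IRI minus sham, of the 5 tested members under 4 scalings (points) with limma 95% confidence intervals (lines); 0 marks no difference. With the 75th percentile all 5 intervals lie below 0, whereas with no scaling and with the labelling spike-ins all 5 include 0, and miR-10a-5p lies above 0 with no scaling, spike-ins and quantile normalization.

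A factor shared by a whole array cancels when 1 miRNA is set against another on the same array, so these differences do not depend on which factor is used, though quantile normalization can still move them. Such a log2 difference is not a ratio of abundance, since probes differ in brightness, but its shift between groups shows unequal change. The 13 pairs that could be tested were compared by an exact two-sided permutation test over the 35 splits of 8 arrays, whose smallest possible p is 0.0286. After Benjamini-Hochberg adjustment over the pairs 0 of 13 passed, while 6 had this smallest unadjusted p and the limma fits relative to a member called 4. Even a fully separated pair could pass only if enough other pairs separated too. Failing the adjustment is therefore a limit of this test and does not show equal change.

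No difference was detected between family partners, which carry the same seed. Partners may also bind each other's probes, which was not tested. The log2 difference of miR-10a-5p minus miR-10b-5p was 0.29, 0.29, 0.31 and 0.36 on the IRI arrays, against 0.27, 0.29, 0.27 and 0.29 on the sham arrays. The groups overlapped, and the shift of 0.032 had an exact permutation p of 0.114 (adjusted 0.212). In limma on values relative to miR-10a-5p, the 95% confidence interval of the change of miR-10b-5p ran from -0.15 to 0.09. For miR-196a-5p minus miR-196b-5p the mean was 1.41 ± 0.03 in IRI kidneys and 1.45 ± 0.06 in sham kidneys (SD, n = 4 each), a shift of -0.041 with an exact permutation p of 0.314. Its limma interval, with miR-196b-5p relative to miR-196a-5p, ran from -0.09 to 0.17.

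No difference between the arms of Mir10a was detected, within wide limits. miR-10a-5p minus miR-10a-3p shifted by 0.023 with an exact permutation p of 0.914, and the limma interval of miR-10a-3p relative to miR-10a-5p ran from -0.24 to 0.20. These values do not exclude a difference between the arms within that interval.

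Between miR-196a-5p and each of miR-10a-5p and miR-10b-5p the groups separated, although the pair test did not pass its adjustment. In that test miR-196b-5p was not set against miR-10a-5p or miR-10b-5p. miR-10a-5p minus miR-196a-5p was 1.55, 1.54, 1.37 and 1.58 on the IRI arrays, against 1.32, 1.29, 1.25 and 1.25 on the sham arrays. Every IRI array lay above every sham array, so miR-196a-5p was lower relative to miR-10a-5p in IRI kidneys than in sham kidneys. The shift was 0.23 with the smallest exact permutation p, 0.0286, and an adjusted p of 0.0619 over the 13 pairs. miR-10b-5p minus miR-196a-5p shifted by 0.20, also without overlap, with the same exact permutation p and adjusted p.

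A limma fit over all miRNAs relative to miR-10a-5p on the same array, chosen after the data were seen, pooled the spread over miRNAs. It called 8.73% of 378 miRNAs lower and 29.9% higher in IRI kidneys relative to miR-10a-5p. In it miR-196a-5p changed by -0.23 (95% confidence interval -0.38 to -0.08, adjusted p = 0.0275) and miR-196b-5p by -0.19 (adjusted p = 0.0998). The miR-196a-5p call held without IRI 1 or IRI 3 and was lost without any of the other 6 arrays, IRI 2, IRI 18 and sham 1, 2, 3 and 6, with adjusted p-values up to 0.0687. Turned round, miR-10a-5p relative to miR-196a-5p had an adjusted p of 0.0160 and kept its call without each of the 8 arrays, with the adjustment then running over the differences from miR-196a-5p. Relative to miR-196a-5p, 61.9% of miRNAs were called higher and 1.59% lower.

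Relative to miR-10b-5p, limma called 7.67% of 378 miRNAs lower and 31.2% higher. miR-196b-5p changed by -0.16 there (95% confidence interval -0.34 to 0.03, adjusted p = 0.138) and did not pass. miR-196a-5p changed by -0.20 (95% confidence interval -0.35 to -0.05, adjusted p = 0.0400). This call held only without IRI 3, where the adjusted p was 0.014, and was lost without each of IRI 1, IRI 2, IRI 18 and the 4 sham arrays, with adjusted p-values up to 0.0914. Turned round, miR-10b-5p relative to miR-196a-5p had an adjusted p of 0.0264 and lost its call in 6 of the 8 omissions, with adjusted p-values up to 0.0677.

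**Figure D3:**
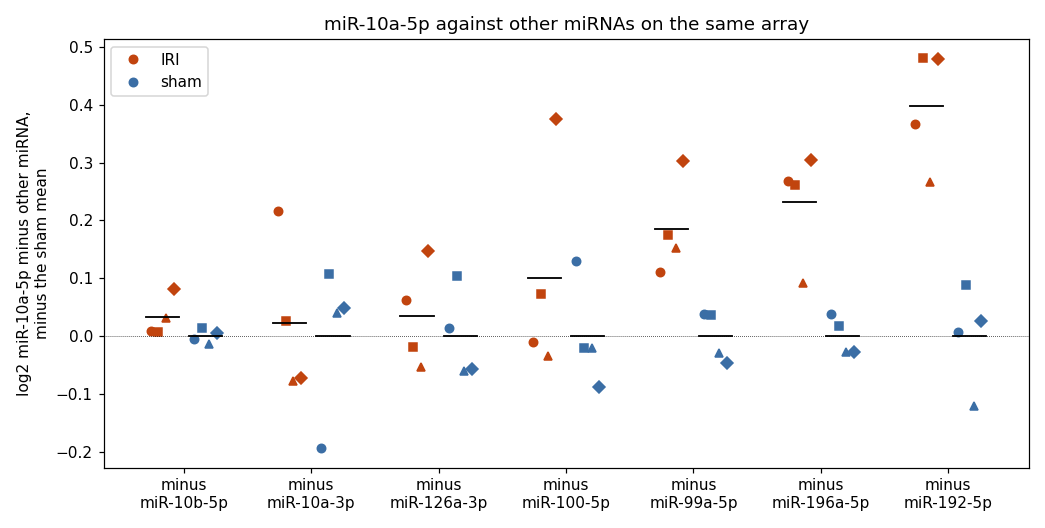
Log2 signal of miR-10a-5p minus that of another miRNA on the same array, shown relative to the sham mean of each pair; IRI points left and sham points right in each pair, lines are group means (n = 4 each) and marker shapes tell arrays apart. The pairs with miR-10b-5p, miR-10a-3p, miR-126a-3p and miR-100-5p overlap between groups, and those with miR-99a-5p, miR-196a-5p and miR-192-5p do not.

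The relatives of miR-10 outside the Hox clusters are miR-99a-5p, miR-99b-5p and miR-100-5p, which carry a related but shifted and altered 5′ end, and miR-125a-5p and miR-125b-5p, which are encoded beside them. The closest in sequence are printed with bases 2 to 8 in capitals, as these do not match the miR-10 seed:
miR-100-5p: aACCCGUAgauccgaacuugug
miR-99a-5p: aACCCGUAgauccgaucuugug

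miR-100-5p shares its longest run with miR-10a-5p, 11 bases from base 7 of miR-10a-5p and base 6 of miR-100-5p. All 5 relatives were detected on all arrays. After 75th percentile scaling 3 of 5 were lower in IRI kidneys by limma and 0 higher, with a median log2 change of -0.16. The shares over all tested miRNAs were 36.7% lower and 12.1% higher. miR-99a-5p changed by -0.47 (adjusted p = 0.0020) and miR-100-5p by -0.39 (adjusted p = 0.0132). miR-125a-5p changed by -0.16 (adjusted p = 0.0479), a call lost when any array but sham 2 was left out, with adjusted p-values up to 0.114. miR-99b-5p at -0.14 (adjusted p = 0.0749) and miR-125b-5p at -0.12 (adjusted p = 0.140) did not pass. Without scaling the median of the relatives was 0.14, so miR-99b-5p, miR-125a-5p and miR-125b-5p turned to the other sign, and 0 of 5 were called by limma or had an unadjusted p under 0.05.

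On the same array, miR-10a-5p minus miR-99a-5p was 2.02, 2.09, 2.07 and 2.22 for IRI, against 1.95, 1.95, 1.88 and 1.87 for sham. The groups did not overlap, with a shift of 0.18, an exact permutation p of 0.0286 and an adjusted p of 0.0619 over the 13 pairs. For miR-10a-5p minus miR-100-5p the groups overlapped, with a shift of 0.10 and an exact permutation p of 0.457. IRI 18 had the highest value in both pairs.

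The other arms cut from Hox cluster hairpins were mostly below detection. miR-196a-1-3p, miR-196a-2-3p, miR-196b-3p and miR-615-5p were detected on 0 of 8 arrays, and miR-615-3p, from the Hoxc cluster, on 2 IRI and 2 sham arrays. None of these 5 entered the test, which says only that their signals were too low for this array.

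The listed cell type markers moved in the same comparison. After scaling, the tubule list was lower in IRI kidneys for 6 of 6 miRNAs, with a median change of -0.49, and its summed signal ranged over 13922 to 15667 on IRI arrays and 19191 to 22003 on sham arrays. The endothelial pair was lower for 2 of 2, with sums of 3836 to 4321 on IRI arrays and 4623 to 5333 on sham arrays. The fibroblast and mural list had 2 of 4 lower. All 3 red blood cell miRNAs were higher, with sums of 2940 to 4087 on IRI arrays and 43.0 to 902 on sham arrays. For 2 of them the sham values were partly or wholly below detection: miR-486a-5p was detected on 0 and miR-144-3p on 2 sham arrays. Of the 4 leukocyte miRNAs 1 was higher, miR-223-3p with a log2 change of 1.53. By limma miR-142a-3p (0.29, adjusted p = 0.160), miR-155-5p (0.07, adjusted p = 0.573) and miR-150-5p (-0.57, adjusted p = 0.0566) did not pass. Leukocyte sums were 674 to 962 on IRI arrays and 471 to 613 on sham arrays. Over all tested miRNAs, 36.7% were called lower and 12.1% higher. The summed signal of the 6 members was 4473 to 5141 on IRI arrays and 5842 to 6338 on sham arrays. Without scaling 0 tubule, endothelial, fibroblast and mural miRNAs were called lower, while 3 of 3 red blood cell and 1 of 4 leukocyte miRNAs were higher. The shares of all tested miRNAs were then 0.264% lower and 14% higher. The part of these cell types in the members' changes was not tested.

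miR-192-5p, a tubule miRNA, separated from miR-10a-5p within the array. miR-10a-5p minus miR-192-5p was -0.36, -0.25, -0.46 and -0.25 on the IRI arrays, against -0.72, -0.64, -0.85 and -0.70 on the sham arrays. Every IRI array lay above every sham array, with a shift of 0.40, an exact permutation p of 0.0286 and an adjusted p of 0.0619 over the 13 pairs. In limma relative to miR-10a-5p, miR-192-5p was lower in IRI kidneys by a log2 change of -0.40 (adjusted p = 0.0062), a call kept without each of the 8 arrays. Relative to miR-10b-5p its change was -0.37 (adjusted p = 0.0064), also kept without each array.

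The endothelial miR-126a-3p did not separate from the miR-10 family. miR-10a-5p minus miR-126a-3p was -0.92, -1.003, -1.04 and -0.84 on the IRI arrays, against -0.97, -0.88, -1.05 and -1.04 on the sham arrays. The groups overlapped, the shift was 0.034 with an exact permutation p of 0.543, and the limma interval of miR-126a-3p relative to miR-10a-5p ran from -0.20 to 0.13. For miR-10b-5p minus miR-126a-3p the shift was 0.0018 with an exact permutation p of 0.971.

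**Figure D4:**
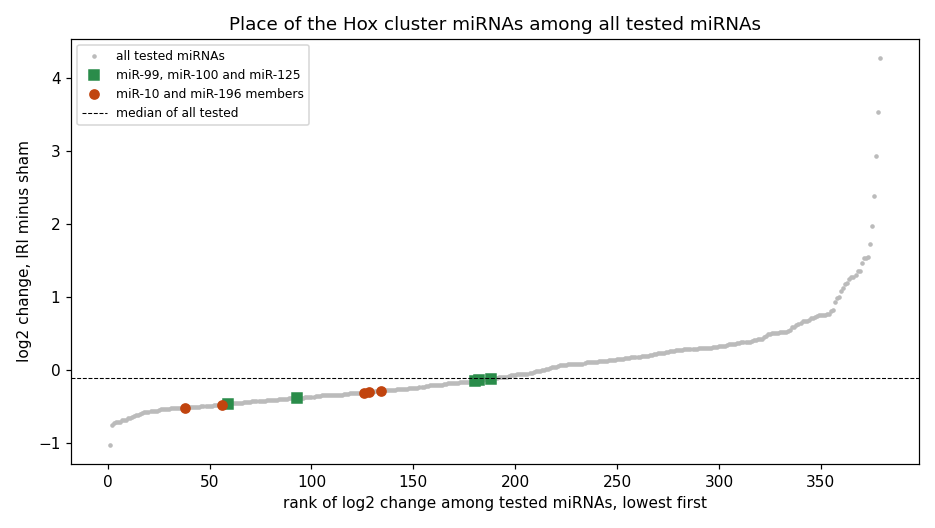
Log2 change, IRI minus sham, after 75th percentile scaling for all 379 tested miRNAs in order of change (grey), with the 5 tested members (orange circles) and the 5 relatives of miR-10 (green squares); the dashed line is the median of all tested. The miR-196 members stand at ranks 38 and 56 from the lowest, and the miR-10 members at ranks 126, 128 and 134, of which miR-10a-5p changed sign under the other 3 scalings and miR-10a-3p with spike-in scaling.

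Members are left out of the following lists of the most alike miRNAs. Over the 8 arrays, the non-members whose scaled log2 signal was most like that of miR-10a-5p were miR-320-3p (Pearson r = 0.9901), miR-128-3p (r = 0.988) and miR-22-5p (r = 0.986). For miR-10b-5p they were miR-218-5p (r = 0.994), miR-30b-5p (r = 0.9902) and miR-320-3p (r = 0.989). For miR-196a-5p they were miR-98-5p (r = 0.999), miR-185-5p (r = 0.997) and miR-192-3p (r = 0.995). These 8 points share their arrays and the group difference, so high values are common and describe these arrays only.

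For miR-196b-5p the most alike non-members were miR-378b (r = 0.986), let-7d-5p (r = 0.983) and miR-192-3p (r = 0.982). For miR-10a-3p they were miR-362-3p (r = 0.898), miR-5100 (r = 0.896) and miR-7671-3p (r = 0.884). Among the members, miR-10a-5p and miR-10b-5p had r = 0.992, and 0.953 after subtracting group means. miR-196a-5p and miR-196b-5p had r = 0.984, and 0.865 after subtraction. Between the families, miR-10a-5p and miR-196a-5p had r = 0.926, which dropped to 0.412 once the group means were removed. Family partners may share binding to each other's probes, which was not tested.

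After subtracting group means, the non-members most like miR-10a-5p were miR-7015-5p (r = 0.954), miR-6976-3p (r = 0.953) and miR-22-5p (r = 0.945). For miR-10b-5p they were miR-218-5p (r = 0.977), miR-6976-3p (r = 0.951) and miR-30b-5p (r = 0.946). For miR-196a-5p they were miR-1839-3p (r = 0.979), miR-98-5p (r = 0.941) and miR-324-5p (r = 0.921). For miR-196b-5p they were miR-191-3p (r = 0.934), miR-1839-3p (r = 0.913) and miR-301a-3p (r = 0.880), and for miR-10a-3p miR-6987-5p (r = 0.813), miR-5100 (r = 0.771) and miR-20b-5p (r = 0.744). The leading values for miR-10a-5p, miR-10b-5p, miR-196a-5p and miR-196b-5p were at least as high as those of their family partners.

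The probes of a member changed by similar amounts after scaling. miR-10a-5p was read by probes of 20 and 21 bases, with scaled log2 changes of -0.27 and -0.30, and miR-10b-5p by probes of the same lengths with -0.33 and -0.32. The 4 probes of miR-196a-5p, of 19 to 22 bases, changed by -0.50, -0.52, -0.52 and -0.53, and both probes of miR-196b-5p by -0.48. Of the 4 probes of miR-10a-3p, those of 17 and 18 bases changed by -0.30 and -0.38 and the shorter ones were not well above background on every array. Each probe of the miR-10 5p arms and of miR-196b-5p was measured on 13 to 15 spots per array, against 5 to 8 for each probe of miR-196a-5p. The scanner's own error was 7.58 to 7.61% of the signal for miR-10a-5p on IRI arrays and 7.61 to 7.62% on sham arrays, against 9.74 to 10.6% on IRI arrays and 9.05 to 12.6% on sham arrays for miR-10a-3p. The number of arrays limits the precision of all these values.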

How the data were processed

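Total RNA from 30 mg of kidney was labelled with Cy3 (100 ng) and hybridised to Agilent mouse miRNA arrays, per the labels' protocols. Spot intensity in the deposited scanner files is linear and comes from Agilent Feature Extraction 12.0.3.1, background-subtracted but not normalized between arrays, per the file headers. The authors' deposited value table gives each miRNA as a ratio; the steps behind it are not given in the labels or headers. Set against the scanner files, a higher ratio means more signal, and neither the scale nor the centre used is known. The medians of its columns were 0.658, 0.646, 1.16 and 0.749 for IRI 1, 2, 3 and 18, and 0.859, 1.23, 1.29 and 1.30 for sham 1, 2, 3 and 6, and it served only as an alternative. The genome build in the deposited files differs from the RefSeq table's, so printed coordinates are those of GRCm38.p6.

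Groups and numbers came from sample titles. Control spots and outlier spots (1422 to 1560 per array) were left out, and 0 spots were saturated. Processed signals were averaged per probe, then added up per miRNA. Arrays were scaled to the 75th percentile of the 317 miRNAs that every array detected, and values were floored at 17.3 (the 5th percentile over detected miRNAs) and taken to log2. limma 3.58.1 in R 4.3.3 (lmFit, eBayes, two-sided) tested 379 miRNAs detected on all arrays of a group, with Benjamini-Hochberg adjustment and a threshold of 0.05. Pair differences used exact permutation tests (scipy 1.17.1). The fits were tested on simulated data, and 0 pairs of arrays were identical. The p-values speak only to variation among these 8 samples, and it may be technical.

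Other scalings, floors, filters, background corrections, ways to value a miRNA, variance models, blocks and omission of single arrays were tried as alternatives; the limma fits relative to a member were added after seeing the data. The named miRNAs are the members, other Hox cluster arms, the relatives of miR-10, miR-192-5p, miR-126a-3p, marker lists, and the 3 most correlated others per member. Members and lists were chosen with earlier results of these data known.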

Additional observations from a re-analysis of the deposited data

Results flagged for a closer look

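For miR-196a-5p, 1 sham array stood apart from the other 3. Sham 2 had a scaled signal of 991 intensity units, against 1041 to 1052 on sham 1, 3 and 6, and its gap to the nearest of them was 0.833 of the whole sham range on the log2 scale. Chance alone sets a sample apart in this way in about 1 in 20 groups of this size. Without sham 2 the log2 change of miR-196a-5p, IRI minus sham, was -0.54, against -0.52 with it.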

How the results depend on the processing

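The between-array scaling mattered most, and the cause was not tested. Without scaling the limma changes were 0.015 for miR-10a-5p, -0.0081 for miR-10a-3p, -0.018 for miR-10b-5p, -0.22 for miR-196a-5p and -0.18 for miR-196b-5p, with 0 members lower in IRI. With spike-in scaling they were 0.032, 0.0089, -0.00063, -0.20 and -0.16 in the same order, with 0 members lower. With quantile normalization miR-10a-5p was 0.064, miR-10b-5p -0.10 and 3 members were lower. No member was called higher under any alternative run. The call of miR-10a-3p was also lost with the scanner's total gene signal (-0.23), with the values of the authors' deposited table (-0.32), with all miRNAs tested (-0.31) and with the slide column as a block (-0.31).

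With each array left out in turn, 4 to 5 members were lower in IRI. The changes ranged from -0.36 to -0.23 for miR-10a-3p, from -0.32 to -0.25 for miR-10a-5p, from -0.36 to -0.28 for miR-10b-5p, from -0.54 to -0.50 for miR-196a-5p and from -0.52 to -0.45 for miR-196b-5p, and only miR-10a-3p lost its call.

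Same-numbered IRI and sham arrays had correlations of deviations from their group means of -0.16, -0.20 and 0.24, so the numbers were not taken to pair samples. The replicate block, over the 6 arrays with a shared number, gave -0.30 for miR-10a-5p, -0.37 for miR-10a-3p and -0.32 for miR-10b-5p, all no longer called, and 2 members lower, miR-196a-5p (-0.50) and miR-196b-5p (-0.43). Over all tested miRNAs the count called lower was 139 in the analysis reported and 50 with that block, 90 of 1881 with all miRNAs tested, 1 without scaling and 2 with spike-ins. The count called higher was 46, against 17 with that block, 21 with all miRNAs tested, 18 with normexp background correction and 75 with spike-ins.

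Of the pair differences, those near 0 changed sign and quantile normalization moved others: miR-10a-5p minus miR-100-5p to 0.60, minus miR-10a-3p to 0.42, minus miR-99a-5p to 0.48, minus miR-196a-5p to 0.42 and minus miR-10b-5p to 0.16, and miR-10b-5p minus miR-100-5p to 0.44, minus miR-99a-5p to 0.32 and minus miR-192-5p to 0.22. With an array left out, miR-10a-5p minus miR-100-5p was between 0.0094 and 0.15. miR-10a-5p minus miR-10a-3p was -0.022 with the scanner's total signal and with the authors' deposited table, and between -0.042 and 0.058 with an array left out. miR-10a-5p minus miR-126a-3p was -0.063 with quantile normalization and between -0.0034 and 0.069 with an array left out. miR-10b-5p minus miR-126a-3p was -0.22 with quantile normalization and between -0.019 and 0.032 with an array left out. miR-10b-5p minus miR-100-5p was between -0.0063 and 0.11 with an array left out. miR-196a-5p minus miR-196b-5p was 0.12 with quantile normalization. The limma fits relative to the first miRNA of a pair called 4 of the pairs, against 0 by the exact permutation test.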

Other observations

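miR-10a-5p and miR-196a-5p can also be set against the listed cell type markers on the same array, in the limma fits added after the data were seen. Relative to miR-10a-5p, 3 of 6 tubule miRNAs were lower in IRI kidneys and 0 higher. Among them miR-194-5p, which is encoded beside miR-192, changed by -0.42 (adjusted p = 0.0044) and kept its call without each of the 8 arrays. miR-429-3p, of the epithelial miR-200 family, changed by -0.21 (adjusted p = 0.0348) and kept its call only without IRI 3 or IRI 18, with adjusted p-values up to 0.0908 without the others. Relative to miR-10a-5p, 0 of 2 endothelial and 0 of 4 fibroblast and mural miRNAs passed the test, and 3 of 3 red blood cell and 3 of 4 leukocyte miRNAs were higher, against 29.9% of all miRNAs higher and 8.73% lower in that fit. miR-223-3p, a miRNA of myeloid cells, was higher by 1.82 (adjusted p = 5.2e-05), a call kept without every array in turn. miR-486a-5p, of red blood cells, was detected on 4 IRI and 0 sham arrays, so it has no measured size. Relative to miR-196a-5p, 1 of 2 endothelial miRNAs was higher, miR-126a-3p by 0.20 (limma adjusted p = 0.0217). This call was lost in 2 of 8 omissions. In that fit 2 of 6 tubule miRNAs were lower, against 61.9% of all miRNAs higher and 1.59% lower. These were miR-192-5p at -0.17 (adjusted p = 0.0436) and miR-194-5p at -0.19 (adjusted p = 0.0466). They lost their calls in 7 and 6 omissions.

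Relative to miR-196a-5p, 3 of 5 relatives of miR-10 were higher in IRI kidneys by limma, a share close to the 61.9% of all miRNAs called higher in that fit: miR-125b-5p by 0.40 (adjusted p = 0.00080), miR-99b-5p by 0.38 (adjusted p = 0.0023) and miR-125a-5p by 0.36 (adjusted p = 0.0019), all kept without each array. miR-99a-5p at 0.05 (adjusted p = 0.535) and miR-100-5p at 0.13 (adjusted p = 0.202) did not pass. A single scale factor per array cancels in these values, and they were not recomputed with quantile normalization.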
